A study of Mus musculus with 8 samples.

Results

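Transcripts of 10 genes of the p53 pathway and of the survival decision it feeds were described in single sorted cells of the mouse cerebral cortex at E15.5. The genes were taken as a list of symbols, 10 of the 27998 genes of the matrix, and comprised the p53 family members Trp73 and Trp53, the p53 targets Cdkn1a, Mdm2, Ccng1, Bax, Bbc3 and Pmaip1, and the survival genes Bcl2 and Bcl2l1. The cells were EGFP-positive cells of the strain Tg(Ebf2-EGFP)FB58Gsat, in which the reporter is driven from an Ebf2 transgene, and they were sorted by FACS and run on a droplet platform that tags the 3′ end of each captured transcript with a unique molecular identifier (UMI). The labels list 8 samples, all of this genotype, age and sort, with embryos of timed-pregnant mice pooled, and their cells form 1 matrix with no map from barcodes to samples. The data were therefore treated as 1 library without replicates, no test was made, and the 95% intervals reflect the error of counting alone, without the spread between animals.

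The matrix held 3000 barcodes with 57180867 UMIs, between 10718 and 76690 per barcode, and 2931 were kept after 69 likely doublets were removed. Cajal-Retzius (CR) neurons, the Reelin-secreting pioneers of layer 1, were represented by 470 barcodes with at least 5 Reln UMIs per 10000, called Reln-high. Levels are given in CPM, scaled so that all UMIs of a class sum to 1000000. The Reln level, which the threshold itself set apart, was 1903 CPM against 74.0 in the 2444 other neurons. The other 7 CR markers were higher too, Ndnf for example at 170 against 3.24 CPM and Ebf3 at 80.1 against 3.64 CPM. The nearest barcode inside the threshold had 5.22 Reln UMIs per 10000 and the nearest outside had 4.87, with 6 and 16 barcodes within 1 UMI per 10000 of it. Of the Reln-high barcodes, 391 (83.2%) lay in the CR-like cluster of a clustering made without the 10 genes, Reln or Rspo3, while the remainder lay mostly in clusters led by Snhg11 (34 barcodes) and Neurod1 (22). Although all cells were sorted on the Ebf2 reporter, an Ebf2 UMI was found in 45.5% of Reln-high barcodes and in 2.66% of other neurons, most of which carried markers of cortical projection neurons. The other neurons also held 1 barcode with 6800 UMIs of Hba-a1, a haemoglobin gene. A further 18 barcodes were radial glia-like and were kept apart from the other neurons, and 1 of them was also Reln-high.

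The proteins p53 and p73 are transcription factors that bind the same DNA element, in which half-sites of fixed pattern are repeated. p53 is held low by MDM2, itself a p53 target, and when released it raises the cell cycle inhibitor p21 (Cdkn1a) and pro-apoptotic genes such as Bax, Bbc3 (PUMA) and Pmaip1 (NOXA), whose products are opposed at the mitochondrion by BCL2 and BCL-xL (Bcl2l1). CR neurons are a classical site of p73 in the brain, and mice without p73 lose these cells, which in normal development are born early and largely eliminated after birth. The full-length and the N-terminally truncated forms of p73 arise from separate promoters and share their 3′ part, so counts of 3′ ends could not tell them apart.

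By the GENCODE annotation of GRCm38 the CR marker Trp73 lies on the minus strand at chr4:154056253-154140208, Trp53 at chr11:69580359-69591873, Cdkn1a at chr17:29090976-29100727 and Mdm2 at chr10:117688875-117710758. Ccng1 lies at chr11:40748552-40755311, Bax at chr7:45461697-45466898, Bbc3 at chr7:16308393-16318205, Bcl2 at chr1:106538178-106714274 and Bcl2l1 at chr2:152780668-152831728. Exons of Trp73 overlap those of the antisense gene Trp73os, and exons of Bcl2 overlap D630008O14Rik on the other strand. Whether strand was used in counting is not given in the sources used here, so the counts of these pairs are uncertain to that extent.

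The p53 element was searched for in the RefSeq promoter windows of GRCm38.p6, each reaching from 250 bases before to 50 bases after a start site, since most of the genes described are named as p53 targets. The p53 consensus half-site, a pattern of 10 bases that reads the same on both strands, occurred in 8.36% of all 32851 windows. Windows were held for 9 of the 10 genes, 15 windows in all, of which 5 had a match. These were 1 window each of 5 genes, Cdkn1a with 2 matches and Trp53, Mdm2, Ccng1 and Bax with 1 each. The 2 matches of Cdkn1a began 73 and 51 bases before the upstream start site, and those of Trp53, Mdm2, Ccng1 and Bax began 75, 186, 185 and 201 bases before theirs. A match is a description of the letters and not a site of binding, and the window of the second Cdkn1a start site and those of Trp73, Bbc3, Bcl2 and Bcl2l1 held none. The stretches with a match are given 5′ to 3′ on the strand of the gene, with the half-sites in capitals.
Cdkn1a, chr17:29090729-29091028, plus strand: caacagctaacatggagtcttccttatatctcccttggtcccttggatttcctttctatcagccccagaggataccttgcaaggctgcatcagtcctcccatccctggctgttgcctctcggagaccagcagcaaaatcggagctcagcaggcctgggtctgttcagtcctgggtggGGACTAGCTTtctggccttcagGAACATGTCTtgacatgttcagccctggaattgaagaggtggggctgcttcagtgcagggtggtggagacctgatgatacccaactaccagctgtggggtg
Mdm2, chr10:117710915-117710964, minus strand: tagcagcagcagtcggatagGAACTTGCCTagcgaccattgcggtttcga
Ccng1, chr11:40755442-40755491, minus strand: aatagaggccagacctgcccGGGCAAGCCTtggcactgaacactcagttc
Bax, chr7:45467070-45467119, minus strand: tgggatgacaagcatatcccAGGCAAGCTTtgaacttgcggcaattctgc
Trp53, chr11:69580264-69580313, plus strand: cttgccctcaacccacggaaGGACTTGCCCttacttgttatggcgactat

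The first question was how these genes differed between CR neurons and the other sorted neurons. Trp73 and Cdkn1a were more than 2-fold higher in Reln-high barcodes, Bcl2 was more than 2-fold lower, and the other 7 genes differed by less than 2-fold. Trp73 was at 141 CPM (interval 134 to 147) in Reln-high barcodes and at 5.46 CPM (4.78 to 6.22) in other neurons, which is 25.7-fold. Its log2 ratio of 4.69 (4.49 to 4.89) was number 34 from the top of the 11252 genes with at least 100 UMIs. Cdkn1a was at 53.7 CPM (49.7 to 58.0) against 10.5 CPM (9.55 to 11.5), a log2 ratio of 2.36 (2.18 to 2.53). Bcl2 was at 22.8 CPM (20.1 to 25.6) against 57.6 CPM (55.4 to 59.96), a log2 ratio of -1.34 (-1.53 to -1.16).

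**Figure D1:**
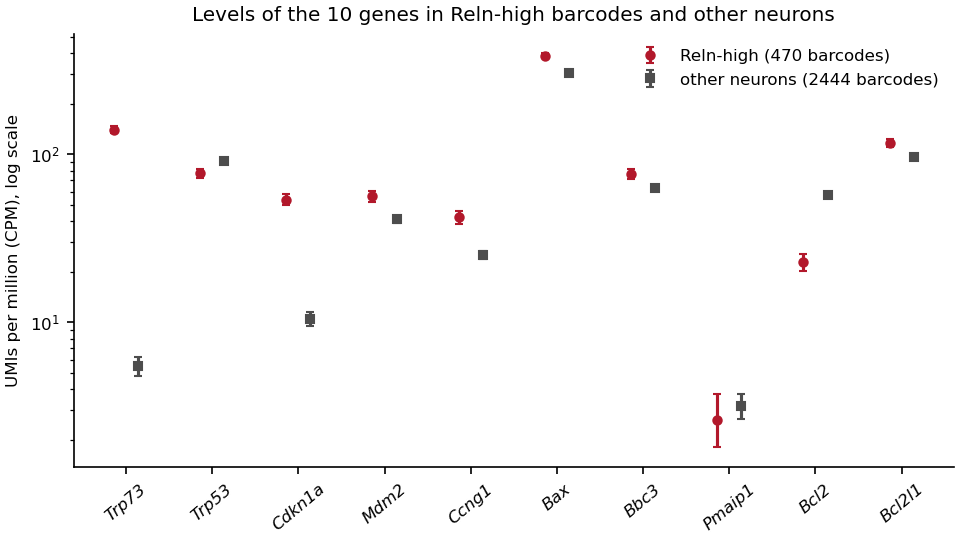
Level of each of the 10 genes in CPM (logarithmic axis) in Reln-high barcodes (circles) and other neurons (squares), with exact Poisson 95% intervals of the summed UMIs. Trp73 and Cdkn1a stood above the other neurons by 25.7-fold and 5.12-fold, Bcl2 stood below them, and the intervals of Pmaip1 overlapped.

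The remaining p53 targets lay between these extremes. Ccng1, which encodes cyclin G1, had a log2 ratio of 0.74 (0.59 to 0.90), at 42.2 against 25.2 CPM. Mdm2, the ubiquitin ligase of p53, had 0.45 (0.32 to 0.58), at 56.2 against 41.1 CPM. The pro-apoptotic Bax had 0.34 (0.29 to 0.39) and Bbc3 0.27 (0.16 to 0.38), and the survival gene Bcl2l1 had 0.27 (0.18 to 0.36), so that genes of opposed function stood on the same side. Trp53 was lower in Reln-high barcodes, at 77.2 against 91.9 CPM and a log2 ratio of -0.25 (-0.36 to -0.15). Pmaip1 was rare in both, with 32 UMIs in all Reln-high barcodes and 134 in other neurons, and its interval of -0.87 to 0.30 held 0.

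Among all 10 genes the interval lay above 0 for 7, below 0 for 2 and held 0 for 1, where it lay above 0 for 4727 and below 0 for 2497 of all 11252 genes. The median log2 ratio was 0.31 beside 0.12 over all genes. A 2-fold higher level was reached by 2 of the 10, where 7.49% of all genes reached it (843 genes), and a 2-fold lower level by 1, where 5.43% reached it (611 genes). Since the median gene was itself higher by 0.12 on the log2 scale, the ratios of Bbc3, Bcl2l1 and Bax relative to that median were 0.15, 0.15 and 0.23, and that of Trp53 was -0.37.

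Reln-high barcodes were deeper, with a median of 21447.5 UMIs against 15276.5, so the percentages of barcodes holding a transcript are given at full depth and with every barcode drawn down to 1 fixed number of UMIs, which 447 Reln-high barcodes and 2199 other neurons reached. A Trp73 UMI was found in 441 of 470 Reln-high barcodes (93.8%, 91.3 to 95.8%) and in 7.49% of other neurons, and after thinning in 78.7% and 4.91%. In Reln-high barcodes the median was 3 Trp73 UMIs and the highest 18. Cdkn1a had a UMI in 243 of 470 barcodes (51.7%, 47.1 to 56.3%), a median of 1 UMI and a highest count of 23. After thinning, 36.2% of Reln-high barcodes and 8.09% of other neurons held a Cdkn1a UMI. For Bcl2 the thinned shares were 22.1% and 43.6%.

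A measure of free RNA is needed to read the low shares. Hba-a1, which neurons should lack, had a UMI in 14.99% of Reln-high barcodes and 19.5% of other neurons after thinning. The shares of Trp73 and Cdkn1a in other neurons lay below that level, and no expression is read from them over the class as a whole. Pmaip1, at 2.68% and 4.05% after thinning, lay below it in both classes. Hba-a1 was at 15.2 CPM in Reln-high barcodes and at 180 CPM in other neurons. Most of its 7616 UMIs in other neurons came from the haemoglobin-rich barcode described above, so that level does not describe the class. Trp73 was at 5.46 CPM and Cdkn1a at 10.5 CPM in other neurons. The share of Hba-a1 is not a measured background of these genes. In radial glia-like barcodes (median 14351.5 UMIs) a UMI of Trp73 and of Cdkn1a was found in 2 of 18 each, and none of Pmaip1 was found, a count of 0 that allows up to 10.2 CPM taken as 3 counts, or 12.5 CPM by the exact Poisson bound.

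The level of Trp73 followed the level of Reln also within each class. It was 4.26 CPM in barcodes under 1 Reln UMI per 10000, 8.51 CPM between 1 and 5, 81.3 CPM between 5 and 10, 126 CPM between 10 and 20 and 171 CPM at 20 or more. Neurod6, a gene of cortical projection neurons, went from 1335 and 1213 CPM in the barcodes below the threshold to 727, 423 and 181 CPM over the last 3 bins. Cdkn1a had no such order, at 44.6, 65.4 and 44.9 CPM over those 3 bins.

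Depth also differed within the Reln-high barcodes. Without barcodes above 25000 UMIs in either class, the log2 ratios over other neurons were 5.09 for Trp73, 3.17 for Cdkn1a and 1.13 for Ccng1, so that 3 genes were at least 2-fold higher. Barcodes with both Xist and Y-linked UMIs, which a single cell should not show, made up 12.98% of Reln-high barcodes and 3.03% of other neurons.

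The second question was how the genes varied within CR neurons along Rspo3, a secreted enhancer of WNT signalling that is made by the cortical hem, a source of CR neurons. Rspo3 was not particular to Reln-high barcodes, at 139 CPM there, 96.6 CPM in other neurons and 146 CPM in the Fezf2-led deep-layer-like cluster. The part of projection neuron transcripts in the Rspo3 level of a barcode was not tested. The 470 Reln-high barcodes were graded into 132 with no Rspo3 UMI and into low (113), middle (113) and high (112) parts of the others, the high part reaching up to 13.6 Rspo3 UMIs per 10000. Cdkn1a was concentrated in the high grade, at 163 CPM (146 to 182), against 32.3 CPM (25.97 to 39.7) with no Rspo3, 25.3 CPM (20.6 to 30.9) in the low and 37.3 CPM (31.1 to 44.3) in the middle grade. Ordered by level, the middle grade was not apart from no Rspo3, nor no Rspo3 from the low grade, although the intervals of middle and low did not overlap. The high grade stood 2.13 log2 units (1.83 to 2.44) above the middle. Against the none and low grades together the log2 ratio was 2.53 (2.27 to 2.80), or 5.78-fold, which was number 6 from the top of 7712 genes, Rspo3 itself being the highest. Those that came between were C1ql1 (3.44), Eomes (2.77), Cenpw (2.72) and Nhlh1 (2.54).

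**Figure D2:**
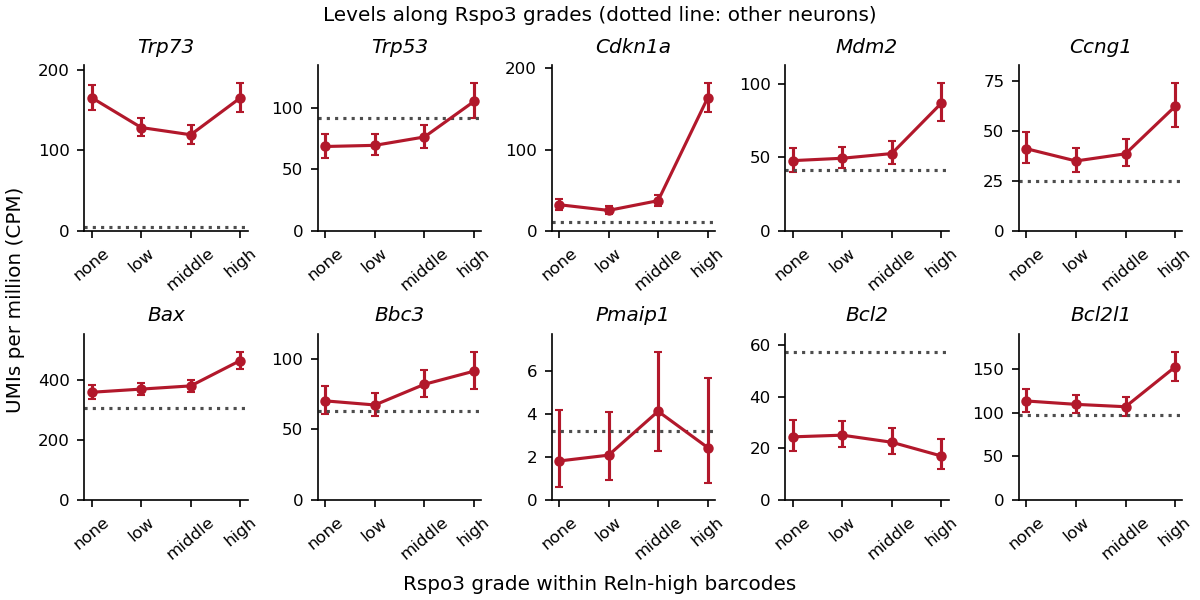
Level of each gene in CPM in the 4 Rspo3 grades of Reln-high barcodes, with exact Poisson 95% intervals, and in other neurons (dotted line). Cdkn1a was at 163 CPM in the high grade and at 37.3 CPM or less in the others, Mdm2, Ccng1, Bax, Trp53 and Bcl2l1 were highest in the high grade, and Trp73 was lower in the low and middle grades than at both ends.

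Other p53 pathway genes were higher in the same grade by smaller steps. Mdm2 was at 47.7, 49.3, 52.5 and 86.7 CPM from none to high, and its high grade exceeded none and low with a log2 ratio of 0.83 (0.56 to 1.10). Ccng1 was at 41.3, 35.1, 38.7 and 62.5 CPM, a log2 ratio of 0.73 (0.41 to 1.04). Trp53 was at 68.5, 69.5, 76.3 and 105 CPM, a log2 ratio of 0.60 (0.37 to 0.84). For each of these the high grade stood apart from the next in order of level, and no other pair of neighbours in that order did. Graded anew within barcodes of at most 25000 UMIs, Ccng1 was at 39.9, 51.7, 68.3 and 68.4 CPM, so its high grade was level with the middle. Mdm2 was then at 55.6, 67.2, 77.5 and 110 CPM and Trp53 at 67.1, 75.8, 94.1 and 120 CPM. The part of depth in these levels was not tested.

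Genes that act at the mitochondrion are given next, and whether they differed from the others was not tested. Bax was at 360, 371, 382 and 467 CPM, a log2 ratio of 0.35 (0.24 to 0.46), and Bcl2l1 was at 113, 110, 107 and 153 CPM, a log2 ratio of 0.46 (0.26 to 0.65). Bbc3 was at 70.3, 67.4, 82.2 and 91.5 CPM, with no pair of neighbouring grades apart, although the high grade exceeded none and low by 0.41 (0.16 to 0.66). Bcl2 was at 24.4, 25.1, 22.3 and 16.9 CPM, and the upper bound of its log2 ratio of -0.55 (-1.12 to -0.02) came close to 0. Pmaip1 had 5 to 14 UMIs per grade, and its interval of -1.53 to 1.89 held 0.

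Trp73 did not follow Rspo3. Its level was 165 CPM (151 to 181) with no Rspo3, 128 CPM (117 to 140) in the low, 119 CPM (108 to 132) in the middle and 165 CPM (148 to 184) in the high grade, with none and high not apart and both above the other grades. Neurod6 moved in the opposite way, at 182, 476, 455 and 169 CPM, as did the summed deep-layer markers at 257, 503, 508 and 208 CPM. Median UMIs were 19267, 34111, 26529 and 16845, and barcodes with both Xist and Y-linked UMIs were 6.06, 20.4, 24.8 and 1.79%. Graded anew within barcodes of at most 25000 UMIs, Trp73 was at 180.05, 148, 170 and 185 CPM. The part of projection neuron transcripts and depth in these levels was not tested. The log2 ratio of Trp73 between high and none and low was 0.20 (0.02 to 0.38), and it turned to -0.003 when high was set against no Rspo3 UMI alone.

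For Cdkn1a the same regrading gave 39.9 (30.8 to 50.7), 69.8 (55.4 to 86.7), 116 (96.9 to 138) and 228 CPM (199 to 261). None of these intervals overlapped, so the level rose at each grade, unlike in the grading of all Reln-high barcodes. The log2 ratio of high over none and low was 2.13. Within the CR-like cluster alone the grades had 35.1, 30.004, 50.2 and 175 CPM. Over all 15 alternatives the ratio ranged from 1.49 to 2.64. For Bcl2 the log2 ratio was -0.13 (-0.91 to 0.60) without barcodes above 25000 UMIs, an interval that held 0.

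Over the 9 genes that reached 100 UMIs in this comparison the median log2 ratio was 0.46, beside 0.003 over all 7712 genes. Of all 10 genes the interval lay above 0 for 8, below 0 for 1 and held 0 for 1, where it lay above 0 for 953 and below 0 for 1095 of all 7712 genes. Only Cdkn1a was at least 2-fold higher in the high grade, where 0.869% of genes were (67 genes), and no member was at least 2-fold lower, where 2.18% were (168 genes). The high grade was therefore more than 2-fold apart from the lower grades for few genes of any kind.

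The high Cdkn1a level of the Rspo3-high grade came from a part of its barcodes. At least 3 Cdkn1a UMIs were found in 44 of 112 (39.3%, 30.2 to 49.0%), against 6.82% with no Rspo3, 9.73% in the low and 13.3% in the middle grade and 1.47% of other neurons. After thinning these shares were 28.2%, 4.10%, 2.65%, 9.17% and 0.819%. In the high grade 33 barcodes had no Cdkn1a UMI, the median was 0.846 per 10000 and the highest was 20.5 per 10000. The 10 barcodes with most Cdkn1a UMIs held 139 of its 337 UMIs (41.2%). The top 10 of the other grades held a like part, 36 of 90 (40%), 40 of 98 (40.8%) and 51 of 127 (40.2%). Without the 10 Reln-high barcodes with most Cdkn1a UMIs per 10000, left out after the data were seen, the log2 ratio of high over none and low was 1.78.

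**Figure D3:**
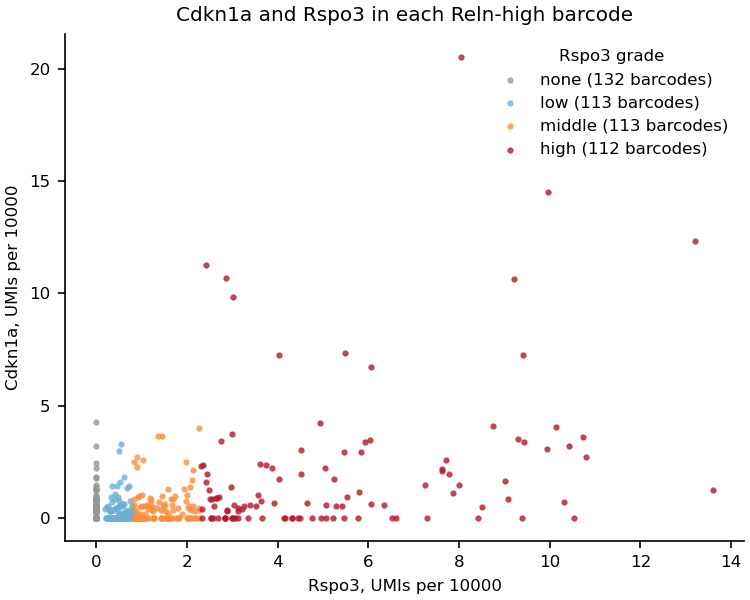
Cdkn1a against Rspo3 in UMIs per 10000 for each of the 470 Reln-high barcodes, coloured by Rspo3 grade. Barcodes above 5 Cdkn1a UMIs per 10000 were all in the high grade, where 33 of 112 barcodes had none.

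The p53 targets Mdm2 and Ccng1 were highest in the barcodes that held most Cdkn1a. Within the high grade Mdm2 was at 58.1 CPM in the 33 barcodes without a Cdkn1a UMI, 73.1 CPM in the 35 with 1 or 2 and 127 CPM in the 44 with at least 3, a log2 ratio of 1.13 (0.57 to 1.71) between the last and the first. Ccng1 was at 34.2, 62.9 and 88.8 CPM, a log2 ratio of 1.37 (0.66 to 2.13). Trp53 was at 83.4, 101 and 130 CPM, with a log2 ratio of 0.64 (0.14 to 1.14). The ratios of Bbc3 (0.56), Bcl2l1 (0.41) and Bax (0.28) were smaller with intervals above 0, while those of Trp73 (0.29, -0.10 to 0.68), Bcl2 and Pmaip1 held 0.

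In the 358 Reln-high barcodes of the lower 3 grades the same division was weaker in size, and whether the grades differ in this was not tested. Between the 35 barcodes with at least 3 Cdkn1a UMIs and the 194 with none, Ccng1 had a log2 ratio of 0.76 (0.28 to 1.21) and Mdm2 one of 0.40 (-0.06 to 0.83). Barcodes with more Cdkn1a also held less Neurod6 there, at 416, 383 and 234 CPM from none to at least 3 UMIs, and their median depths were 23712, 26529 and 21985 UMIs. In the high grade Neurod6 was at 219, 196 and 94.4 CPM and the median depths were 18914, 17794 and 14658.5 UMIs. The part of Neurod6 transcripts and of depth in these ratios was not tested.

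Markers of other cell types were also set beside the Rspo3 grades. The summed level of the 8 radial glia markers was 180, 169, 218 and 366 CPM from none to high. Most of it came from Pax6 (96.4 CPM in the high grade against 27.9 in none and low) and Vim (251 against 124). Hes5 (3.39 against 0.901) and Sox2 (1.94 against 0.300) were also higher, and Fabp7 (12.6 against 18.6) and Top2a (0.484 against 0.751) were lower. The intervals of Sox2, Fabp7 and Top2a held 0. The proliferation gene Mki67 and the progenitor gene Hes1 were at 0 in the high grade and at 0.300 CPM in none and low. The 6 subplate markers summed to 58.1, 64.1, 71.6 and 142 CPM, through Nxph4 (116 against 33.05). Cplx3, Lpar1 and Moxd1 were at 0 in the high grade and at 0.451 CPM or less in none and low. The 6 newborn neuron markers summed to 104, 144, 117 and 129 CPM and had no common direction. Eomes (35.8 against 5.26) and Neurog2 (18.4 against 3.45) were higher in the high grade. Sstr2 (4.84 against 22.1) and Neurod1 (43.1 against 59.5) were lower, as were Rnd2 and Insm1 with intervals that held 0. Among CR markers Lhx1 and Nhlh2 were higher in the high grade, with log2 ratios of 1.48 and 0.79, Ndnf and Ebf2 were lower, with -1.18 and -1.17, and Reln did not differ beyond counting error (-0.02, -0.07 to 0.03). Dissociation can induce early response genes, and the 10 early response and heat shock genes summed to 2029, 1679, 1584 and 1189 CPM from none to high. The part of any of these in the Cdkn1a difference was not tested.

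The level of each gene was next described over the 8 clusters, which were named from fixed markers. Trp73 was at 154 CPM in the 397 CR-like barcodes, 28.6 CPM in the Snhg11-led cluster, 14.4 CPM in the Neurod1-led cluster and between 5.79 and 13.6 CPM in the other 5. The first stood apart from the second and the second from the third, and no neighbouring pair below that was apart. The Neurod1-led interval (11.6 to 17.6 CPM) still lay above those of the subplate-like, upper-layer-like, Fezf2-led and Akap7-led clusters, which reached 10.3 CPM at most. Without their Reln-high barcodes the Snhg11-led and Neurod1-led clusters had 15.1 and 3.37 CPM, and the former fell to 7.77 CPM without its 5 highest barcodes.

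**Figure D4:**
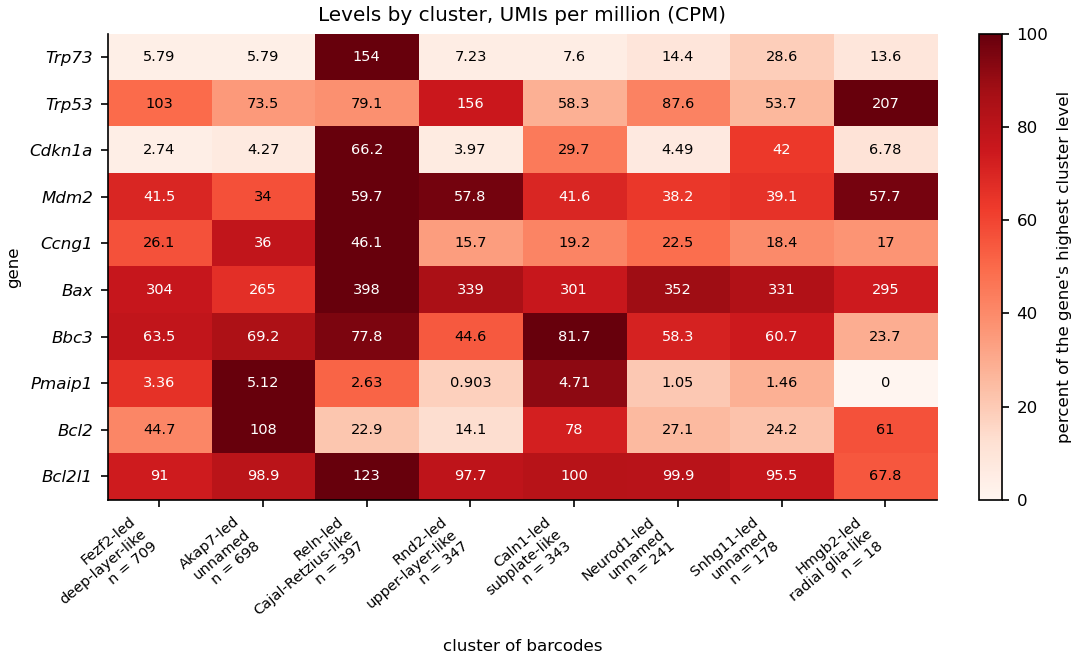
Level of each gene in CPM (printed) in 8 clusters of 18 to 709 barcodes, shaded by the percent of that gene's highest cluster level. Trp73, Cdkn1a, Mdm2, Ccng1, Bax and Bcl2l1 were highest in the Reln-led CR-like cluster, Bcl2 and Pmaip1 in the Akap7-led cluster, Bbc3 in the subplate-like cluster and Trp53 in the radial glia-like cluster.

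Cdkn1a had a different order below the CR-like cluster. It was at 66.2 CPM there, 42.0 CPM in the Snhg11-led cluster and 29.7 CPM (25.3 to 34.6) in the subplate-like cluster, each apart from the next, and at 2.74 to 6.78 CPM in the other 5. In subplate-like barcodes that were not Reln-high the level was 30.1 CPM, with a UMI in 22.9% after thinning. This lay below the Hba-a1 share of 26.8% in this cluster, which is not a measured background of Cdkn1a. At least 3 UMIs were found in 17 of 338, and the level was 25.2 CPM without the 5 highest barcodes. In the Snhg11-led cluster it was 41.6 CPM without Reln-high barcodes, with a UMI in 29.5% after thinning. In the Fezf2-led deep-layer-like cluster the same share was 2.77%, so the shares differed between clusters beyond counting error. The highest other neuron, with 26 Cdkn1a UMIs, lay in the CR-like cluster at 3.47 Reln and 18.0 Rspo3 UMIs per 10000, and the 6 such CR-like barcodes below the Reln threshold held 50 of the 444 Cdkn1a UMIs of all other neurons.

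When more clusters were drawn, CR-like barcodes divided into clusters that also differed in depth. Cdkn1a, which was not used in the clustering, led a CR-like cluster in each case. With 12 K-means clusters a CR-like cluster of 120 barcodes had Cdkn1a as its leading gene, at 217 CPM (197 to 239), and with Leiden clustering one of 90 barcodes did, at 261 CPM (236 to 289). Both were also led by Serpinh1, Vcam1, C1ql1 and Lhx1, at median depths of 16271 and 15774.5 UMIs. The other CR-like K-means clusters were led by Ndnf (26255.5 UMIs) and Cebpa (14551.5 UMIs). The other CR-like Leiden clusters were led by Ndnf (38564 UMIs), Reln (21023 UMIs) and Cebpa (13396 UMIs).

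Bcl2 was highest in the Akap7-led cluster, at 108 CPM (102 to 115), where it was among the 10 leading genes. That cluster stayed unnamed, since the deep-layer markers Tle4, Sox5 and Foxp2 were 2-fold higher in it but the subplate marker Nr4a2 was the one marker among its leading genes. It followed at 78.0 CPM in subplate-like and 44.7 CPM in Fezf2-led deep-layer-like barcodes, and was at 22.9 CPM in CR-like and 14.1 CPM in upper-layer-like barcodes. The lower Bcl2 level of Reln-high barcodes was thus set against clusters that differed among themselves, and CR-like barcodes stood above the upper-layer-like ones by a log2 ratio of 0.70 (0.32 to 1.09). Its companion Bcl2l1 was highest in CR-like barcodes, at 123 CPM, and between 67.8 and 100 CPM in the others. The CR-like cluster stood above the next, subplate-like one by a log2 ratio of 0.30 (0.15 to 0.44), and no neighbouring pair below was apart. After thinning, a Bcl2 UMI was found in 69.1% of Akap7-led and 15.48% of upper-layer-like barcodes that were not Reln-high.

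Trp53 was highest in radial glia-like barcodes, at 207 CPM (158 to 266), and in upper-layer-like neurons, at 156 CPM (146 to 166), and lowest in the Snhg11-led cluster at 53.7 CPM, with CR-like barcodes at 79.1 CPM. Mdm2 was at 59.7 CPM in CR-like, 57.8 CPM in upper-layer-like and 57.7 CPM in radial glia-like barcodes, which were not apart, and at 34.0 to 41.6 CPM in the other 5. Bax ran from 265 CPM in the Akap7-led cluster to 398 CPM in CR-like barcodes. Bbc3 was at 81.7 CPM in subplate-like and 77.8 CPM in CR-like barcodes, which were not apart, and at 44.6 CPM in upper-layer-like barcodes. Pmaip1 was at 5.12 CPM or less in every cluster.

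The genes most like Trp73 in their log2(CPM + 1) levels over the 8 clusters were Insm2, Cthrc1, Cacna2d2, Zic2 and Reln, with Pearson correlations of 0.983 to 0.986 over 8 points that share 1 library and differ in depth. Each was highest in the CR-like cluster, Insm2 at 52.1 CPM and Cacna2d2 at 220 CPM. Those most like Cdkn1a were Fnta, Scap, Fastk, Ccdc115 and Gtf3a, with 0.977 to 0.989, and these varied little, Fnta between 66.3 and 106 CPM and Gtf3a between 84.7 and 98.4 CPM. The correlations are a description.

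Other genes of the pathway were taken from 7 lists. Of 12 further p53 targets in apoptosis 9 could be compared between Reln-high barcodes and other neurons, and 4 were at least 2-fold higher and none lower, where 7.49% of all genes were higher and 5.43% lower, with a median log2 ratio of 0.90. These were Pidd1 (3.31), a scaffold of the caspase-2 complex, the membrane protein gene Perp (2.10), the AKT inhibitor Phlda3 (2.03) and the nuclease Aen (1.68), and the lowest were Apaf1 (0.37), Zfp385a (0.34) and Ei24 (0.01). Of 19 targets in cell cycle, repair and feedback 5 were higher and 4 lower, beside the same shares of all genes, with a median of -0.01. The highest were Sesn2 (2.36), Psrc1 (2.13) and Sesn1 (1.79), the sestrins being stress-induced inhibitors of mTORC1, and the lowest were Plk2 (-1.63), Cd82 (-1.68) and Rprm (-1.70). Rprm was also a leading gene of the Akap7-led cluster.

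**Figure D5:**
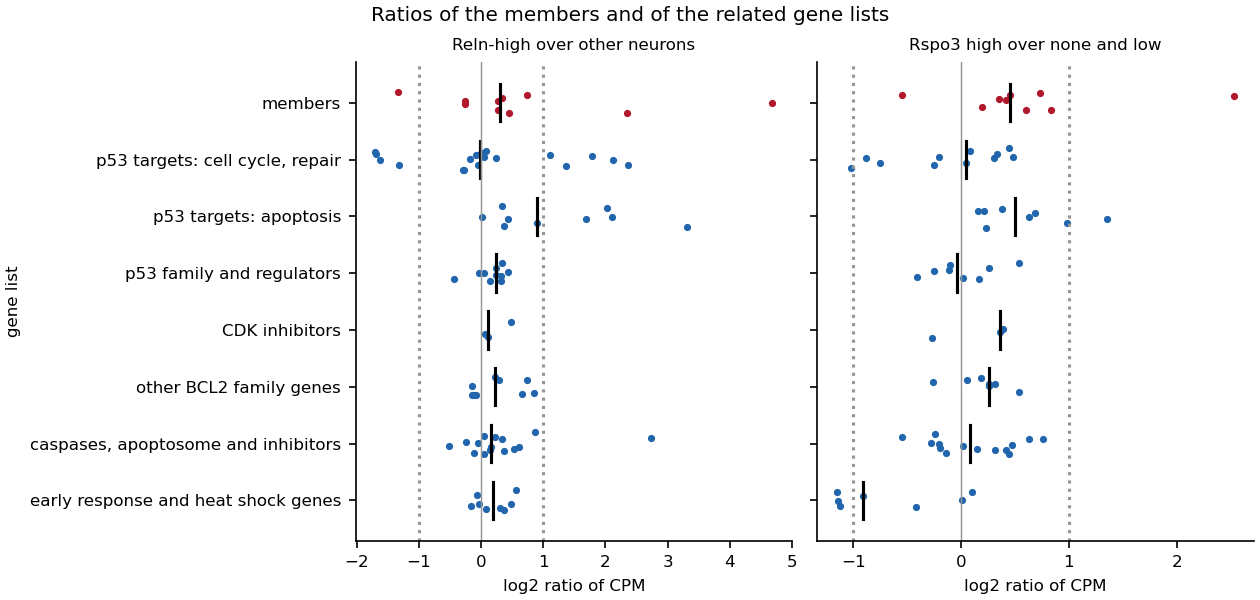
Log2 ratio of each gene with at least 100 UMIs, by list, for Reln-high barcodes over other neurons and for the Rspo3-high grade over none and low, with the median of each list as a bar and 2-fold as dotted lines. The apoptosis targets had medians of 0.90 and 0.51, and the early response genes had a median of -0.91 in the second comparison.

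The regulators and effectors differed less between these classes. None of the 10 p53 family and regulator genes reached 2-fold, with Hipk2 (0.43), Ppm1d (0.35) and Trp53bp1 (0.33) highest and Ppp1r13b (0.06), Trp53bp2 (-0.04) and Atm (-0.44) lowest. None of the 3 other CDK inhibitors compared reached 2-fold. Cdkn1b was higher, at 0.48 (0.33 to 0.64), while Cdkn2d (0.11) and Cdkn1c (0.07) lay near the median gene (0.12). Among the other BCL2 family genes Bok (0.85), Bcl2l2 (0.74) and Bcl2l11 (0.65) were highest and Bcl2l13 (-0.11), Mcl1 (-0.14) and Hrk (-0.15) lowest. Of 15 caspase and apoptosome genes 1 exceeded 2-fold, Diablo, an antagonist of the inhibitors of apoptosis, at 414 against 61.9 CPM and a log2 ratio of 2.74 (2.67 to 2.81). Its exons overlap B3gnt4 on the other strand, which was at 7.75 against 2.39 CPM. Endog (0.87) and Xiap (0.62) followed, and Birc2 had -0.11. The early response genes ran from 0.56 (Atf3), 0.48 (Egr1) and 0.36 (Fos) to -0.04 (Dnajb1), -0.06 (Ier2) and -0.16 (Junb).

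Along Rspo3 the apoptosis targets again had the highest median of the 7 lists, at 0.51 over 8 genes. Phlda3 was at 93.5 CPM in the high grade against 36.5 CPM, a log2 ratio of 1.36 (1.08 to 1.63), Trp53inp1 had 0.99 (0.49 to 1.47) and Aen had 0.69 (0.50 to 0.87), whereas Pidd1 (0.23), Zfp385a (0.21) and Ei24 (0.15) had intervals that held 0. Among the targets in cell cycle, repair and feedback Ddit4 (0.48), Xpc (0.45) and Ccng2 (0.33) were highest and Plk2 (-0.75), Rprm (-0.89) and the antiproliferative Btg2 (-1.02) lowest, with a median of 0.05. Cdkn1c (0.39) and Cdkn1b (0.36), the other members of the Cip/Kip family of CDK inhibitors, were far below Cdkn1a, and Cdkn2d had -0.27.

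The remaining lists gave no gene 2-fold higher in the high grade. The regulators ran from 0.54 (Itch), 0.26 (Ppm1d) and 0.17 (Mdm4) to -0.11 (Trp53bp1), -0.25 (Usp7) and -0.40 (Hipk2), and the BCL2 family from 0.54 (Bcl2l13), 0.31 (Bok) and 0.26 (Bid) to 0.19 (Bad), 0.06 (Bcl2l2) and -0.26 (Mcl1). Caspase and apoptosome genes ran from 0.76 (Cflar), 0.63 (Apaf1) and 0.48 (Birc2) to -0.28 (Xiap) and -0.54 (Casp9), and Diablo had 0.01 (-0.10 to 0.12). Of 7 early response genes 3 were more than 2-fold lower in the high grade, where 2.18% of all genes were, Jun (-1.15), Fosb (-1.14) and Junb (-1.12), while Ier2 (0.10), Dnajb1 (0.01) and Fos (-0.42) were highest.

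Set against the other neurons, the Rspo3-high and the none and low grades gave these values side by side, with the other neurons shared between them. Cdkn1a was 15.54-fold and 2.69-fold higher, and Mdm2 2.11-fold and 1.18-fold. Ccng1 had log2 ratios of 1.31 (1.03 to 1.57) and 0.58 (0.38 to 0.78). Those of Trp53 were 0.19 (-0.01 to 0.39) and -0.41 (-0.55 to -0.27). Trp73 was 30.2-fold and 26.3-fold higher, and Bcl2 had log2 ratios of -1.77 and -1.22.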

How the data were processed

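The deposited values were UMI counts per gene and barcode, made by the authors with Cell Ranger 2.0.0 on mm10 and analysed with Seurat 2.0 per the labels and the submitters' processing notes. The annotation used is not given in the sources used here. Computation was in Python 3.11.15 with scipy 1.17.1, scanpy 1.11.5 (Scrublet, Leiden) and scikit-learn 1.9.0. A filter of 1000 genes or more and a mitochondrial share of 10% or less removed no barcode, and the 2.3% with the highest Scrublet scores were removed as doublets, whereas the automatic threshold called 1. The 2000 most variable genes without the 10 genes, Reln and Rspo3 gave 20 principal components and 8 K-means clusters, as in the study. A cluster name needed at least 3 markers at 2-fold, and no other class with more markers among its 10 leading genes. Clusters were rebuilt from the counts, so names may differ from the study.

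Intervals at 95% were exact Poisson for the CPM of summed UMIs, conditional binomial for the ratio of a pair of classes and Clopper-Pearson for shares of barcodes. Thinning drew each barcode down to 1 number of UMIs, reached by 2660 of 2931. Genes under 100 UMIs over the barcodes compared were left out of counts over genes. The genes, lists, markers and comparisons were chosen with earlier results of these data known. Named genes were all 10 members, the 3 highest and 3 lowest of each list (some are not reported here), and the 5 most like Trp73 and Cdkn1a. C1ql1, Eomes, Cenpw and Nhlh1 were named after their values were seen, and the division by Cdkn1a UMIs was likewise made after the data were seen. On simulated UMIs with 200 changed genes, 96 of 97 genes with 2-fold changes were recovered for Reln-high barcodes over other neurons (11252 genes) and 88 of 92 for the Rspo3 comparison (7712 genes). The simulation drew the summed UMIs of a class with counting error alone. It held no spread between barcodes or animals, and so checks the computation only. GENCODE held 27722 of the 27998 gene identifiers.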

Additional observations from a re-analysis of the deposited data

How the results depend on the processing

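No paired analysis was possible because the 8 labelled samples are 1 group and no barcode is mapped to a sample. For Reln-high barcodes over other neurons, 12 alternatives gave 7 members above 0, 2 below 0 and 1 lower by 2-fold in each case, and no called direction changed. Members at least 2-fold higher rose to 3, with Ccng1, without barcodes above 25000 UMIs, and stayed at 2 otherwise. The log2 ratio of Trp73 moved to 4.23 at 10 Reln UMIs per 10000, 4.06 for the CR-like cluster in place of the Reln threshold, 5.09 without barcodes above 25000 UMIs and 5.05 against other neurons under 1 Reln UMI per 10000. For the Rspo3 comparison, the log2 ratio of Cdkn1a was 2.13 without barcodes above 25000 UMIs, 1.78 without the 10 highest Cdkn1a barcodes, 1.49 between the upper and lower part by Rspo3 and 1.72 at 1 Rspo3 UMI per 10000. The directions that reversed were those of Trp73 (-0.094 between the upper and lower part by Rspo3, -0.0092 at 1 Rspo3 UMI per 10000 and -0.0029 for high against no Rspo3 UMI). The Bcl2 interval no longer lay below 0, which left 0 members below 0, without doublet removal, at 10 Reln UMIs per 10000, in the CR-like cluster by itself or within Reln-high, without barcodes above 25000 UMIs, without those with Xist and Y-linked UMIs, after thinning, for all 3 other ways to divide by Rspo3 and without the 10 highest Cdkn1a barcodes. The CR-like cluster within Reln-high and the removal of the 10 highest Cdkn1a barcodes were chosen after seeing the data. Members with the interval above 0 ranged from 6 to 8 over the 15 alternatives. The cause of these changes was not tested. Members at least 2-fold higher were 2 between the upper and lower part by Rspo3 and at 1 Rspo3 UMI per 10000, and 1 was 2-fold lower without barcodes above 25000 UMIs. The second gene in these counts, and the lower one, was Pmaip1, which has too few UMIs to be read. Counts of all genes 2-fold apart rose as the minimum fell and more genes were counted. For Reln-high over other neurons they were 1343 higher and 994 lower at 20 UMIs, and 2870 and 3384 at 1 UMI. For the Rspo3 comparison they were 233 and 560 at 20 UMIs, and 1394 and 2991 at 1 UMI. Thinned shares with a UMI in Reln-high barcodes and other neurons were 78.7% and 4.91% for Trp73 and 36.2% and 8.09% for Cdkn1a. The highest cluster levels were 176 and 187 CPM for Trp73 and 217 and 261 CPM for Cdkn1a with 12 K-means and with Leiden clusters, and 161 CPM for Bcl2 with Leiden clusters. With 1 library, neither the spread between animals nor the origin of the grades could be assessed, and Pmaip1 was at the limit of the depth.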
